A study of Mus musculus with 12 samples.

Results

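Kupffer cells, the resident macrophages of the liver sinusoids, were followed in whole-liver RNA through 10 marker genes: Clec4f, Vsig4, Timd4, Marco, Cd5l, Adgre1, Csf1r, C1qa, C1qb and C1qc. The members were the rows of the count tables that carry these symbols, and each symbol matched 1 of the 54532 genes listed. The study asked how loss of PPARγ in hepatocytes changes the liver during a fast-food diet (FFD). All mice were males with floxed Pparg alleles. At 8 weeks of age they received AAV8.TBG.PI.Cre (PPARγ-KO) or, as wild-type (WT) controls, AAV8.TBG.PI.eGFP. TBG is a hepatocyte promoter, so the Kupffer cells were not the target of Cre in either genotype. Livers were taken after 2 or 5 months of FFD, with 3 libraries in each of the 4 groups. The FFD held 21% fat by weight, 0.2% cholesterol and 34% sucrose, and came with drinking water that held glucose and fructose.

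Kupffer cells are seeded before birth and renew themselves in the liver, and monocytes entering from blood can replace them when they are lost. Their niche is formed by endothelial, stellate and hepatocyte signals that sustain genes such as Clec4f, while TIMD4 protein on mouse Kupffer cells marks those of embryonic origin and appears late, if at all, on cells that came from monocytes. Clec4f and Vsig4 are close to specific for Kupffer cells within the liver, whereas Adgre1 (F4/80), Csf1r and the C1q chains are shared with other macrophages.

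The libraries held 16367775 to 27452284 counts, and all 10 markers passed the filter on low counts in every comparison. Repeat 1 of WT at 2 months stood apart from its group (chi-square per gene 27.6 and 31.7 against the other repeats, 2.44 to 17.5 within all other pairs). Repeats 2 and 3 of WT at 5 months were the closest pair, at 2.44. Against repeat 1 of that group they had 13.1 and 14.6, and every other pair had 9.4 or more. Their independence is not given in the labels, so the spread of that group may be understated in each comparison using it. Pparg itself was called higher in the libraries labelled PPARγ-KO at both ages (log2 fold change 0.52 with edgeR adjusted p = 0.0309 at 2 months, 1.15 with 2.57e-06 at 5 months). Its mean was 39.3 CPM (counts scaled to the library size with TMM factors) in WT and 56.3 in PPARγ-KO at 2 months, and 38.4 and 84.8 at 5 months. The counts do not separate the floxed exons from the rest of the gene, so this row does not check the deletion, and every direction below follows the labels.

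All 10 markers were detected in all 12 libraries. Per kilobase of gene length, the order of the mean levels in WT livers at 2 months ran from Cd5l at 83.1 ± 16.9 CPM per kb (SD, n = 3) to Timd4 at 2.99 ± 0.377 and Marco at 2.41 ± 0.836. Cd5l ranked first in all 4 groups, and its libraries did not overlap with those of the next gene. C1qb, Clec4f and C1qa followed at 51.9, 43.3 and 41.3 CPM per kb, each overlapping with the next of these. C1qc, Vsig4 and Csf1r, from 24.2 down to 18.2 CPM per kb, likewise overlapped with their neighbours among these, and so did Timd4 and Marco, while Adgre1 stood apart at 10.3. At 5 months Marco ranked above Timd4 in WT livers without overlap, at 16.3 ± 1.21 against 3.43 ± 0.242 CPM per kb.

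**Figure D1:**
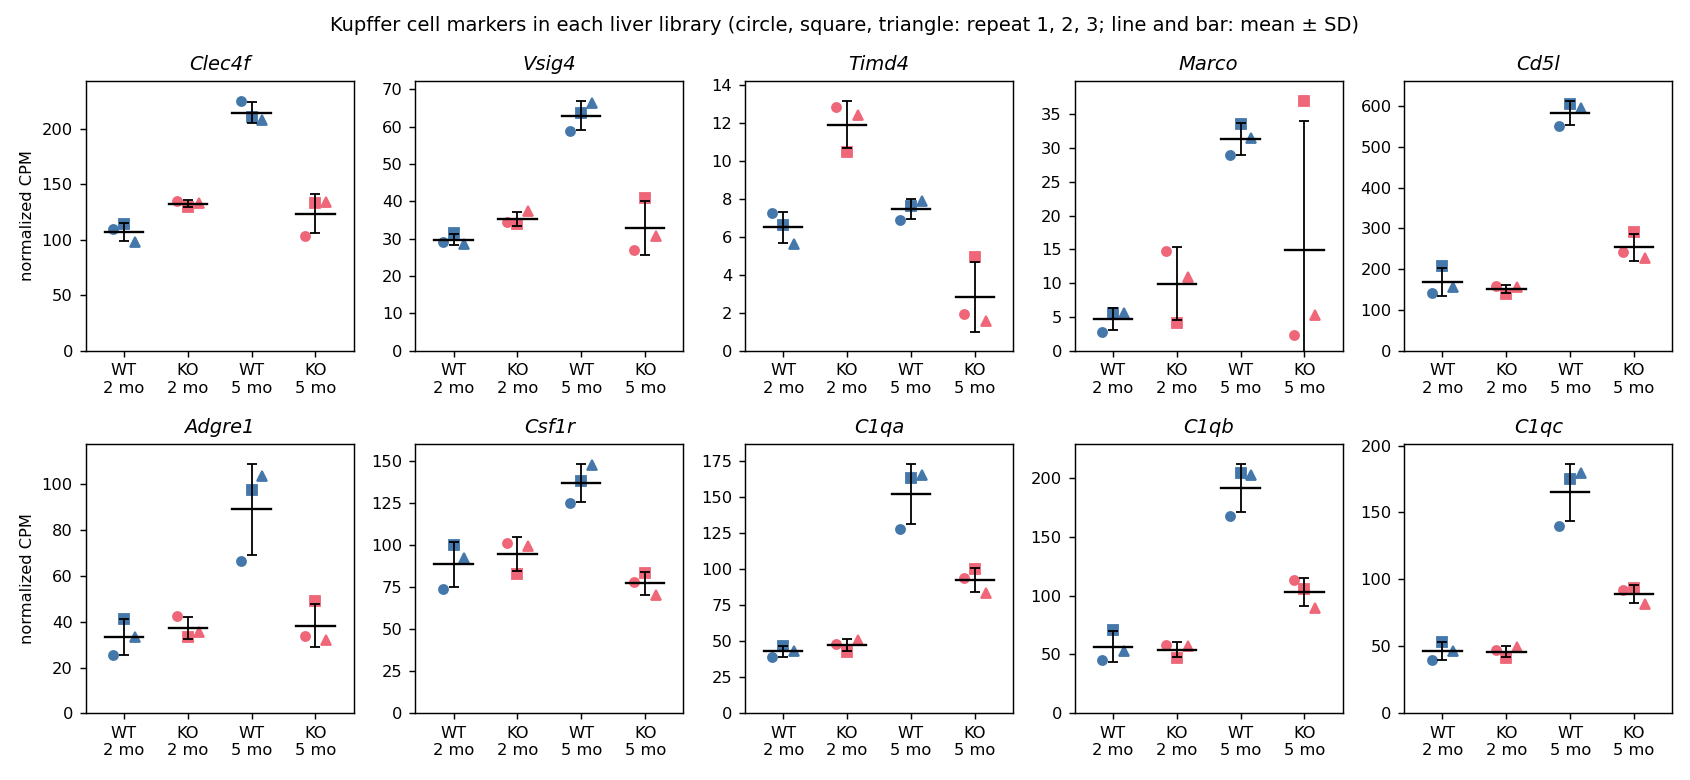
Normalized CPM (vertical axes, starting at 0) of the 10 markers in each of the 12 liver libraries, by genotype and months of FFD; symbols are repeats 1 to 3, and lines with bars are the mean ± SD, the bar of Marco in KO at 5 months being cut at 0. For 9 markers, all but Marco, every PPARγ-KO library at 5 months lies below every WT library of that age.

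After 5 months of FFD, 9 of the 10 markers were lower in PPARγ-KO than in WT livers, by 1.63- to 2.61-fold, and Marco did not pass the test. Over all genes tested, the quasi-likelihood test of edgeR called 18.4% at a Benjamini-Hochberg adjusted p under 0.05, and 9.51% were called lower. The groups did not overlap for the same 9 markers, against 34.8% of all genes, or 19% in this direction. The median log2 fold change of the 10 markers was -0.91, and that of all genes was -0.00577. In whole liver, fewer Kupffer cells and less RNA per cell cannot be told apart.

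Among the receptors, Clec4f, a C-type lectin that binds galactose-bearing glycans, stood at 225, 211 and 208 CPM in the WT libraries and at 104, 133 and 134 CPM in the PPARγ-KO libraries (repeats 1 to 3). The groups were well separated, and the level was 1.72-fold lower in PPARγ-KO (log2 fold change -0.79, SE 0.0924, edgeR adjusted p = 0.00014). Vsig4, the complement receptor CRIg, had 58.8, 63.8 and 66.5 CPM in WT and 26.9, 41.0 and 30.9 CPM in PPARγ-KO. It was 1.90-fold lower, again without overlap (log2 fold change -0.93, SE 0.145, edgeR adjusted p = 0.00351).

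Timd4, a phosphatidylserine receptor, was the scarcest marker at this age, with 6.87, 7.63 and 7.88 CPM in WT and 1.93, 4.92 and 1.58 CPM in PPARγ-KO. The raw counts behind the PPARγ-KO values were 41, 96 and 25. Its difference was 2.61-fold (log2 fold change -1.38, SE 0.368, edgeR adjusted p = 0.0364), and the call was lost when any single library except PPARγ-KO repeat 2 was left out (adjusted p 0.0588 to 0.123). Marco, a scavenger receptor for bacteria and particles, had 29.0, 33.6 and 31.4 CPM in WT and 2.26, 37.0 and 5.30 CPM in PPARγ-KO. A single PPARγ-KO library was thus above every WT library while the others were far below them. Over all 6 libraries the fitted log2 change was -1.06 with an SE of 1.05 (edgeR adjusted p = 0.585), and without PPARγ-KO repeat 2 it gave -3.09 (edgeR adjusted p = 0.00183).

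Cd5l, a secreted scavenger-type protein also called AIM, showed the smallest adjusted p of the 10 markers. It had 550.3, 605 and 595 CPM in WT and 242, 291 and 228 CPM in PPARγ-KO, a 2.28-fold difference (log2 fold change -1.19, SE 0.0902, edgeR adjusted p = 3.25e-06). Of the genes that mark macrophages in general, Csf1r, the receptor for CSF1 and IL-34, had 125, 138 and 148 CPM in WT and 77.9, 83.7 and 70.3 CPM in PPARγ-KO. It was 1.76-fold lower (log2 fold change -0.82, SE 0.0812, edgeR adjusted p = 2.49e-05). Its row overlaps Hmgxb3 on the opposite strand by 871 bases, and without a known strand setting the reads of that stretch cannot be told apart. Adgre1, an adhesion-type receptor, had 66.3, 97.4 and 103 CPM in WT and 34.0, 49.2 and 31.8 CPM in PPARγ-KO. The libraries did not overlap (log2 fold change -1.20, SE 0.263, edgeR adjusted p = 0.0402), but the adjusted p rose to between 0.109 and 0.138 without WT repeat 2 or 3 or PPARγ-KO repeat 1 or 3, and to 0.101 with no filter on low counts.

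The genes C1qa, C1qb and C1qc encode the chains of C1q, the recognition part of the classical complement pathway, and in the liver are expressed mostly by macrophages. They lie side by side on the minus strand of mouse chromosome 4 (chr4:136880129-136898803, GRCm38/mm10). C1qa had 128, 163 and 165 CPM in WT and 93.8, 100.2 and 83.6 CPM in PPARγ-KO (log2 fold change -0.71, SE 0.105, edgeR adjusted p = 0.00104). C1qb had 168, 204 and 203 CPM in WT and 113, 106 and 89.6 CPM in PPARγ-KO (log2 fold change -0.89, SE 0.0989, edgeR adjusted p = 0.00014). For C1qc the values were 140.3, 175 and 179.7 CPM in WT and 92.3, 93.8 and 81.6 CPM in PPARγ-KO (log2 fold change -0.88, SE 0.096, edgeR adjusted p = 0.000109). All 3 chains were lower by a like amount, 1.63- to 1.85-fold.

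**Figure D2:**
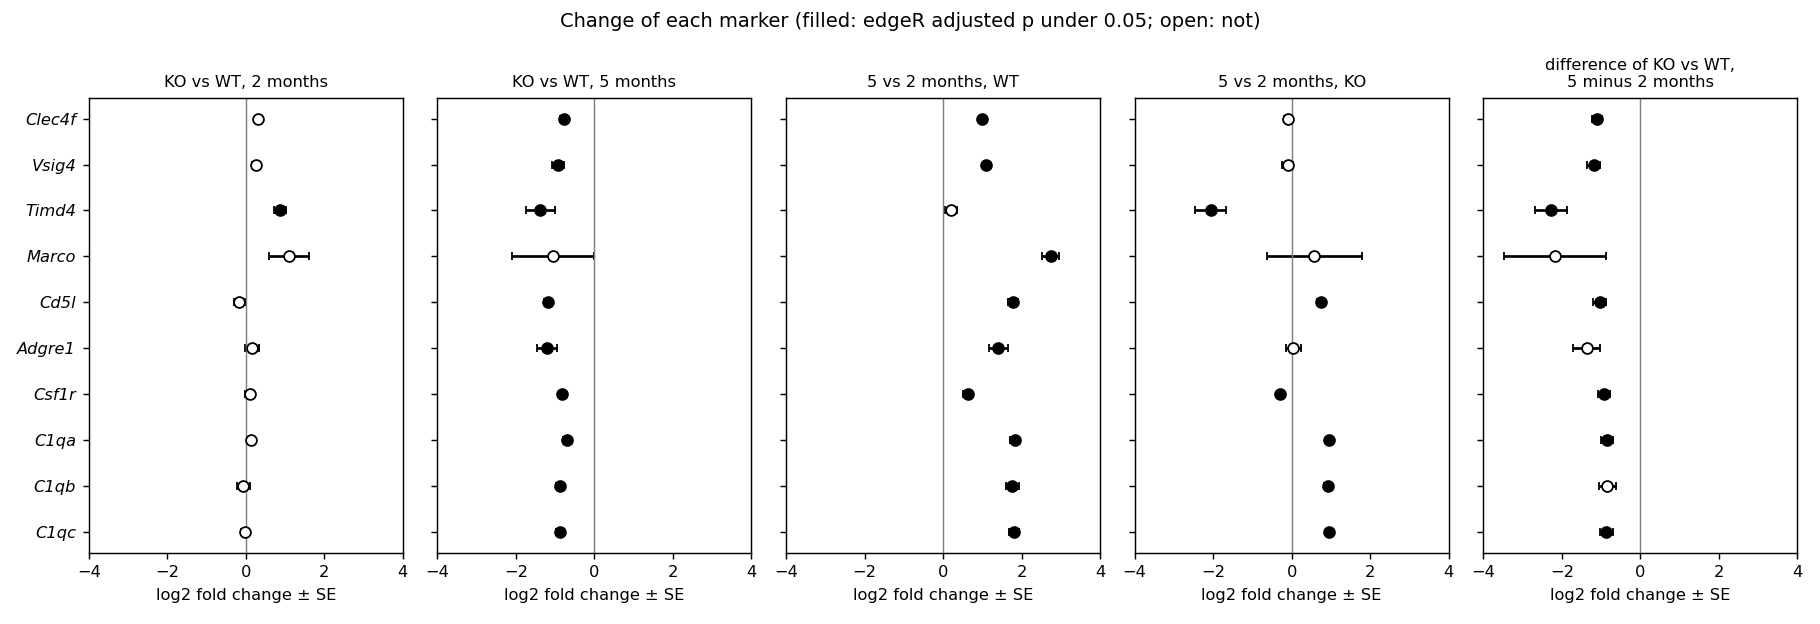
Log2 fold change (horizontal axes, bars are ± SE) of the 10 markers in 5 comparisons fitted by edgeR; filled points have an adjusted p under 0.05. All 10 points lie below 0 for KO vs WT at 5 months, 9 of them called, and all 10 lie above 0 for 5 vs 2 months in WT, 9 of them called.

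At 2 months 7 of the 10 markers had a positive and 3 a negative fold change between PPARγ-KO and WT, and 1 of 10 was called. The background at this age was 3.56% of genes called, 1.78% in the higher direction, and with repeat numbers as a block 817 genes were called in place of 519. The called gene was Timd4, with 7.25, 6.64 and 5.63 CPM in WT and 12.8, 10.5 and 12.4 CPM in PPARγ-KO. It was 1.83-fold higher in PPARγ-KO (log2 fold change 0.87, SE 0.147, edgeR adjusted p = 0.0154). The call was lost without WT repeat 2 or 3 or PPARγ-KO repeat 1 or 3 (adjusted p 0.0572 to 0.0744) and when all 12 libraries shared a fit (0.0748).

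Clec4f and Vsig4 also did not overlap between genotypes at 2 months, as did 24.1% of all genes, 12.1% in the higher direction. Clec4f had 109, 114 and 98.1 CPM in WT and 135, 129 and 134 CPM in PPARγ-KO (log2 fold change 0.31, SE 0.0742, edgeR adjusted p = 0.0536). DESeq2 gave it an adjusted p of 0.0258. Vsig4 had 29.1, 31.4 and 28.7 CPM in WT and 34.5, 34.1 and 37.5 CPM in PPARγ-KO (log2 fold change 0.25, SE 0.081, edgeR adjusted p = 0.128). The other 7 markers overlapped between genotypes. Marco ranged from 2.78 to 5.61 CPM in WT and from 4.10 to 14.7 CPM in PPARγ-KO (log2 fold change 1.10, SE 0.516, edgeR adjusted p = 0.336). For Cd5l, Adgre1, Csf1r and the C1q chains the log2 fold changes lay between -0.16 and 0.15, with adjusted p from 0.462 to 0.937.

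The genotype difference itself changed between the ages. In a fit over the 12 libraries, 7 of 10 markers had a more negative PPARγ-KO effect at 5 than at 2 months, against 1.57% of all genes called in either direction and 0.912% called in this direction. Timd4 changed most among the called genes (log2 difference -2.27, SE 0.409, edgeR adjusted p = 0.0167), followed by Vsig4 (-1.19, edgeR adjusted p = 0.00456), Clec4f (-1.10, edgeR adjusted p = 0.000988) and Cd5l (-1.04, edgeR adjusted p = 0.0112). Csf1r, C1qc and C1qa had log2 differences of -0.92, -0.86 and -0.86. The values for Marco (-2.17, SE 1.29), Adgre1 (-1.36, SE 0.341) and C1qb (-0.84, SE 0.225) were also negative, with edgeR adjusted p of 0.49, 0.0963 and 0.1. The calls of Timd4 and C1qc were lost without WT repeat 2 or 3 of 5 months (adjusted p 0.051 to 0.0594), and that of C1qc also with library size alone (-0.84, edgeR adjusted p = 0.0519).

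From 2 to 5 months of FFD, WT livers gained transcripts of 9 of the 10 markers, all but Timd4. Age, time on FFD and any library series cannot be told apart here, and 46.4% of all genes were called between the ages, 23.8% in the higher direction. The comparison shares its 5-month WT libraries with the genotype comparison above, so the results are not independent. Marco moved from 2.78, 5.61 and 5.53 CPM to 29.0, 33.6 and 31.4 CPM, 6.72-fold higher (log2 fold change 2.75, SE 0.216, edgeR adjusted p = 2.73e-05). C1qa, C1qc, Cd5l and C1qb were 3.39- to 3.54-fold higher, Adgre1 2.66-fold, Vsig4 2.12-fold, Clec4f 2.00-fold and Csf1r 1.55-fold. The log2 change of Timd4 was 0.20, with an SE of 0.16 (edgeR adjusted p = 0.334), and its libraries overlapped.

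In PPARγ-KO livers the same interval gave a mixed picture. C1qa, C1qc, C1qb and Cd5l were higher at 5 months (log2 fold changes 0.96, 0.95, 0.92 and 0.74), and Timd4 and Csf1r were lower, while 44.9% of all genes were called, 22.7% higher and 22.2% lower. Timd4 went from 12.8, 10.5 and 12.4 CPM to 1.93, 4.92 and 1.58 CPM, 4.20-fold lower and without overlap (log2 fold change -2.07, SE 0.39, edgeR adjusted p = 0.00643). Csf1r overlapped between the ages (log2 fold change -0.30, SE 0.0886, edgeR adjusted p = 0.0187), and its adjusted p reached 0.0568 to 0.0813 without any repeat 1 or 3. Clec4f, Vsig4 and Adgre1 had log2 fold changes of -0.10, -0.11 and 0.04 (edgeR adjusted p 0.385, 0.584 and 0.875), and without PPARγ-KO repeat 2 of 5 months Vsig4 was called lower (-0.294, edgeR adjusted p = 0.0319). Marco gave 0.58 (SE 1.21), and -1.43 without PPARγ-KO repeat 2 of 5 months.

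The changes over time depended on gene length across the whole transcriptome. Among protein-coding genes of up to 1200 bases the median log2 fold change from 2 to 5 months was 0.74 in WT and 0.58 in PPARγ-KO, and above 5000 bases it was -0.22 and -0.17. C1qa and C1qb, of 1040 and 1088 bases, belong to the shortest class. Set against the median of genes of like length, the WT changes were 1.09 for C1qa, 1.03 for C1qb, 1.39 for C1qc, 1.55 for Cd5l and 2.32 for Marco on the log2 scale. In PPARγ-KO they were 0.38, 0.34, 0.63, 0.57 and 0.25. For Clec4f, Vsig4, Timd4, Adgre1 and Csf1r the values so set were 0.77, 0.65, -0.04, 1.37 and 0.59 in WT. The same markers had -0.28, -0.43, -2.25, 0.01 and -0.33 in PPARγ-KO. With a length trend for each library taken into the edgeR fit, a setting chosen after seeing the data, the same 9 markers were called in WT. In PPARγ-KO, C1qa, C1qb, C1qc, Cd5l and Timd4 kept their calls and Csf1r lost its own (adjusted p = 0.0542). The genotype comparisons moved little in that fit, with the median of the markers at -0.85 at 5 months. A weaker length trend was present between genotypes at 5 months, with class medians from -0.127 up to 1200 bases to 0.0337 above 5000 bases. Set against its class, C1qa was at -0.581 there in place of -0.706.

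**Figure D3:**
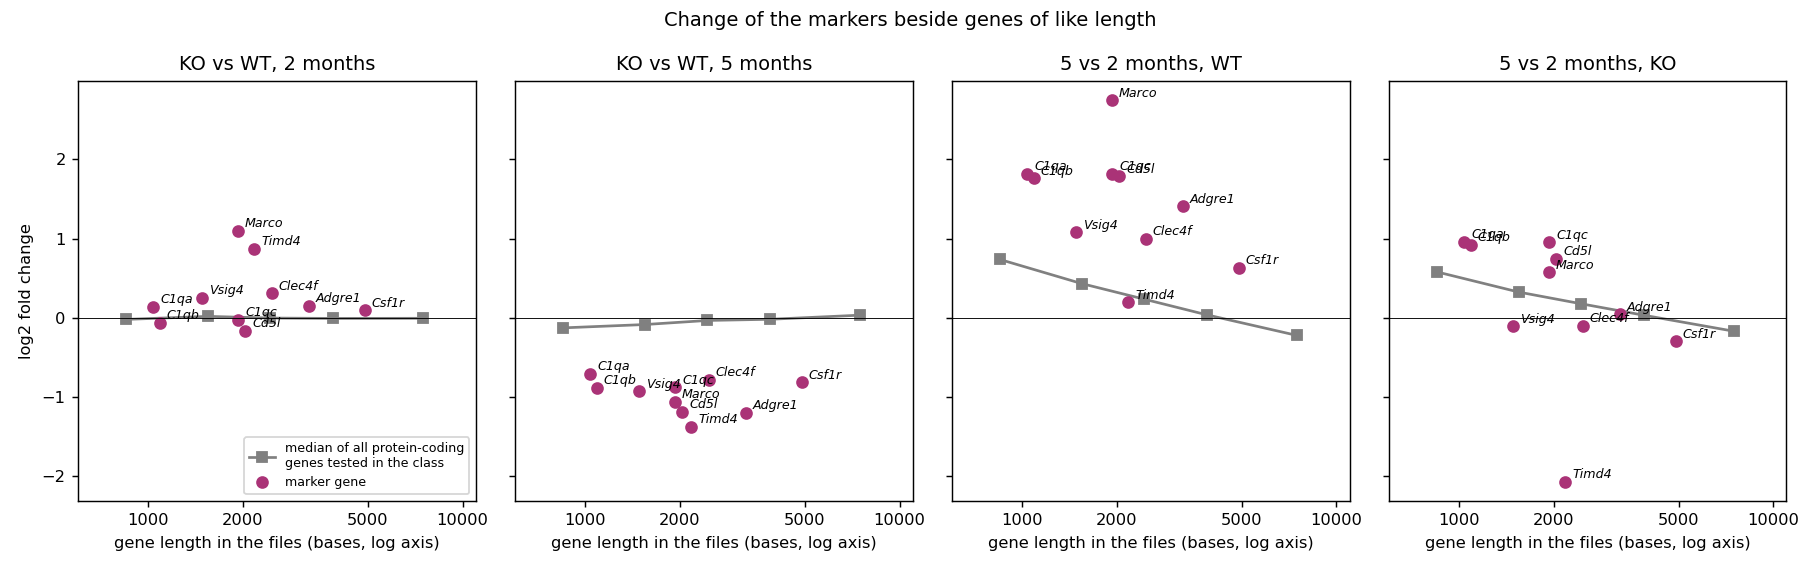
Log2 fold change of the 10 markers against gene length in bases (log axis), with the median of all protein-coding genes tested in 5 length classes as grey squares, each drawn at a nominal position within its class. In both time comparisons the grey line falls from short to long genes, in WT from 0.74 to -0.22. It stays near 0 in the comparison of genotypes at 2 months and rises from -0.127 to 0.0337 in that at 5 months.

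Ratios of counts within a library are free of scaling between libraries, and show which markers moved together. Vsig4 stayed at 23.1 to 32.0 counts per 100 Clec4f counts in all 12 libraries. Timd4 did not keep such a ratio. It had 6.64, 5.83 and 5.74 counts per 100 Clec4f counts in WT at 2 months and 9.52, 8.10 and 9.28 in PPARγ-KO, without overlap (exact permutation test, two-sided, p = 0.1, the smallest p that 3 against 3 libraries allow). At 5 months the ratio was 3.05, 3.62 and 3.79 in WT and 1.86, 3.69 and 1.18 in PPARγ-KO, where the libraries overlapped (exact permutation p = 0.3). Marco spanned 2.18 to 27.7 counts per 100 Clec4f counts, both extremes in PPARγ-KO at 5 months.

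Cd5l was lower relative to Clec4f in PPARγ-KO at both ages without overlap, with 114 ± 5.59 (SD, n = 3) against 158 ± 26.2 counts per 100 at 2 months and 207 ± 32.6 against 272 ± 24.2 at 5 months. C1qc ranged narrowly, from 93.6 to 115 counts per 100 C1qa counts. Within that range the PPARγ-KO libraries lay below the WT libraries at both ages, at 97.0 ± 0.418 against 108 ± 6.20 and 96.5 ± 2.61 against 109 ± 1.28 (SD, n = 3). C1qb spanned a wider 106 to 153 counts per 100 C1qa counts. At 5 months it was lower in PPARγ-KO without overlap, at 111 ± 8.15 against 126 ± 4.51 (SD, n = 3), while at 2 months the libraries overlapped (exact permutation p = 0.2). Each of the 5 contrasts without overlap in this paragraph had an exact permutation p of 0.1, among 14 computed, so none could pass an adjusted threshold.

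**Figure D4:**
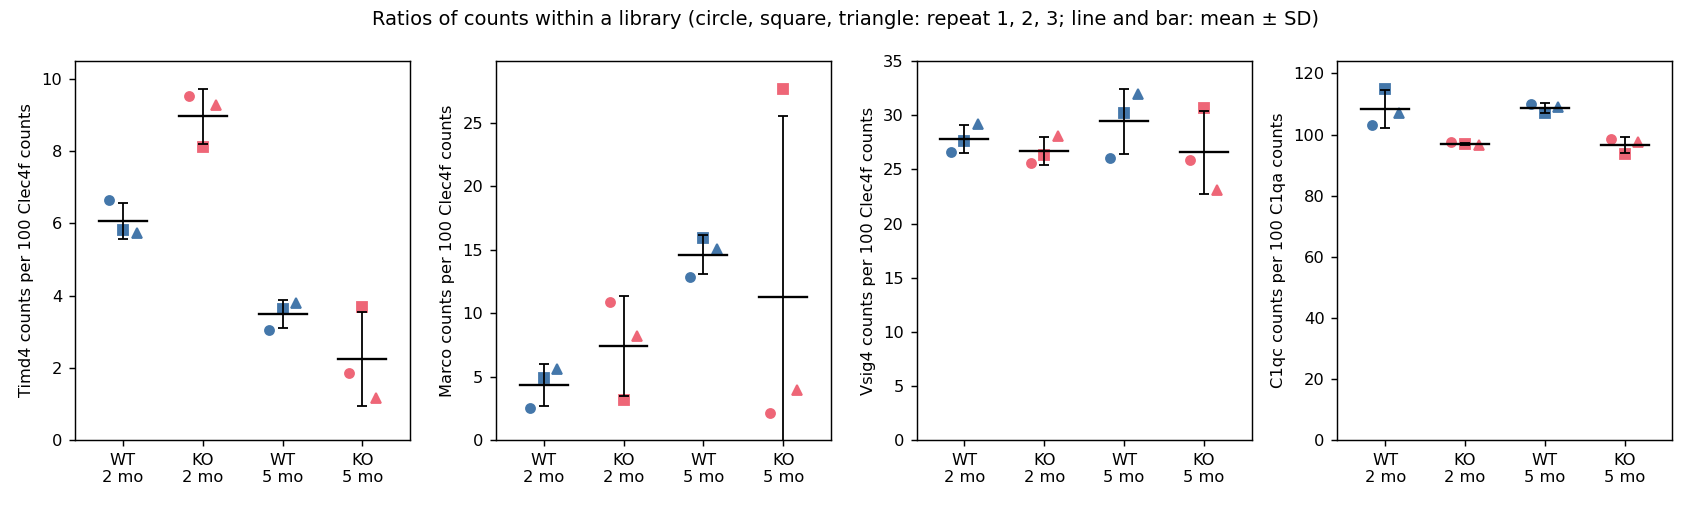
Counts of a marker per 100 counts of another in the same library (vertical axes from 0), by genotype and months of FFD; symbols are repeats 1 to 3, lines with bars the mean ± SD, and bars reaching below 0 are cut there. The Vsig4 to Clec4f ratio stays between 23.1 and 32.0, whereas Timd4 to Clec4f runs from 1.18 to 9.52.

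Across the 12 libraries, the log2 level of Timd4 had a Pearson r of 0.0706 with the mean of the other 9 markers, while the other markers had r from 0.83 to 0.97 with theirs. These values are descriptions over libraries that fall into 4 groups. Within groups the markers also followed single libraries. Repeat 2 of PPARγ-KO at 5 months was highest of its group for 8 of 10 markers, repeat 2 of PPARγ-KO at 2 months was lowest for 10 of 10, and repeat 1 of WT at 5 months was lowest for 9 of 10. The genes outside the 10 whose profile was most like the mean of the markers were Cfp, Ccdc148, Ptpn6, Clec12a, Treml4, Ms4a6c, B430306N03Rik and Ifi30 (Pearson r from 0.966 for Cfp to 0.934 for Ifi30, over 12 libraries and 13161 genes compared).

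Other gene lists placed the markers beside the rest of the macrophage transcriptome. Of 11 other Kupffer cell genes tested at 5 months, 9 were called lower in PPARγ-KO and none higher (median log2 fold change -0.70), led by Spic, the transcription factor of iron-recycling macrophages (-1.41), Folr2, a folate receptor (-1.16), Clec1b (-0.81) and Il18bp, which binds IL-18 (-0.77). At 2 months the haemoglobin scavenger receptor Cd163 (log2 fold change 0.96, edgeR adjusted p = 0.00549) and the ficolin Fcna (0.48, edgeR adjusted p = 0.0473) were higher and Id3 was lower (-0.69, edgeR adjusted p = 0.0491). Cd163 was then lower at 5 months (-0.70, edgeR adjusted p = 0.0446). Folr2, Cd163, Fcna and Il18bp were called in the test of the difference between ages, all toward lower values in PPARγ-KO at 5 months.

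Genes of macrophages in general were lower as well. Of 12 pan-macrophage and myeloid genes, 11 were called lower in PPARγ-KO at 5 months (median -0.98), led by Fcgr1, Tyrobp, Lyz2 and Aif1 (log2 fold changes -1.23 to -1.11), and none of 12 was called at 2 months by edgeR or DESeq2, with 4 at an unadjusted p under 0.05. The most abundant of them, Lyz2 and Ctss, both had a log2 fold change of -0.26 at 2 months. All 12 pan-macrophage and myeloid genes had negative values in the difference between ages (median -0.77). Of these, 4 were called lower (Cd86, Fcgr1, Aif1 and Tyrobp), against 0.912% of all genes. Markers of monocyte-derived and lipid-associated macrophages were lower at both ages. At 2 months 5 of 11 were called lower (median -1.09), namely Trem2 (-1.60), Itgax (-1.21), Ccr2 (-1.18), Cx3cr1 (-1.15) and Lgals3 (-1.09), and at 5 months 6 of 12 were (median -0.84), led by Chil3 (-1.55), Lgals3 (-1.35), Clec4n (-1.15) and Gpnmb (-1.03). Chil3 was scarce, with means of 3.77 CPM in WT and 1.27 CPM in PPARγ-KO at 5 months, and was not tested at 2 months. In the difference between ages edgeR called none of the 12 (median 0.07), with 3 at an unadjusted p under 0.05 and 2 called by DESeq2. Over time, 7 of these 12 genes were called higher in WT and 10 of 12 in PPARγ-KO, against 23.8% and 22.7% of all genes. Of the 12 pan-macrophage and myeloid genes, 11 were called higher over time in WT (median 1.31) and 8 in PPARγ-KO (median 0.58). Mertk was called lower over time in both genotypes. In PPARγ-KO, Gpnmb and Trem2 had log2 fold changes of 3.81 and 2.74 over time. Age, time on FFD and any library series cannot be told apart for these genes either.

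**Figure D5:**
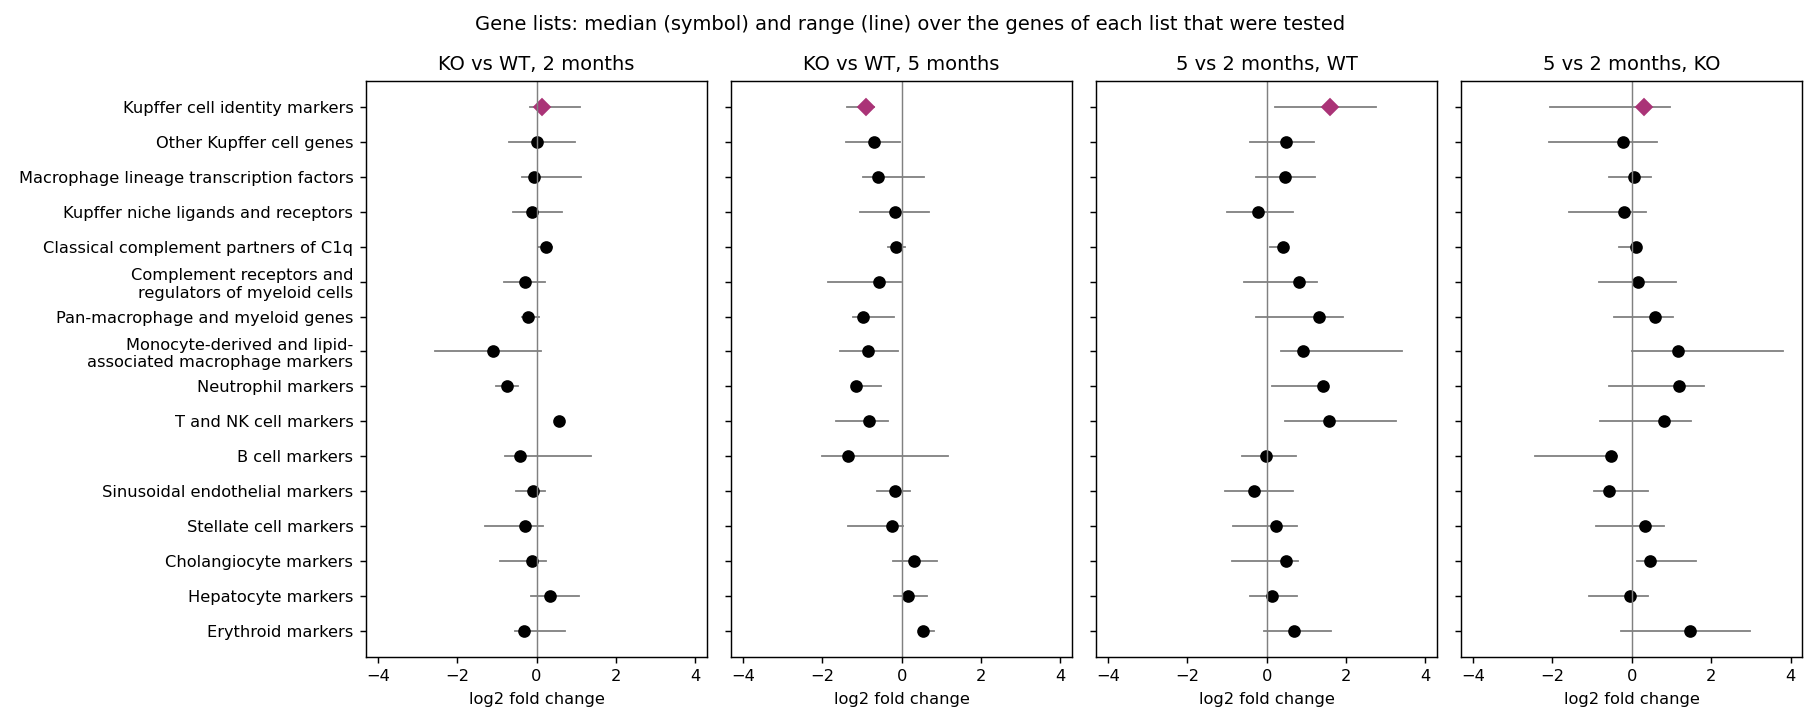
Median (symbol) and range (line) of the log2 fold change over the tested genes of each list, in 4 comparisons; the diamond marks the 10 Kupffer cell identity markers. At 5 months the diamond lies at -0.91 and the pan-macrophage list at -0.98, while the hepatocyte list lies at 0.15.

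Of 8 macrophage transcription factors, Spi1 (PU.1; -0.96) and Zeb2 (-0.62) were called lower and Cebpb higher (0.34) in PPARγ-KO at 5 months. Spi1 and Cebpb were among the 4 of these 8 called higher in WT over time, against 23.8% of all genes. Among 14 niche ligands and receptors, 5 were called lower at 5 months, including the ALK1 receptor Acvrl1 (-1.06), Tgfb1 (-0.61) and the growth factor Csf1 (-0.45), and Notch1 was called higher (0.68). Il34 was not called (-0.14). At 2 months Bmp10 was higher (0.64) and Tgfbr2 lower (-0.61).

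The complement partners of C1q, made largely by hepatocytes, showed a median of -0.14 on the log2 scale at 5 months. Of these 6 genes only Serping1, the C1 inhibitor, was called at 5 months (-0.33). At 2 months edgeR called none, with 4 at an unadjusted p under 0.05 and 1 called by DESeq2. Of 8 complement receptors and regulators of myeloid cells, 5 were called lower at 5 months, led by Itgam (-1.86), properdin or Cfp (-1.09), Itgb2 (-0.95) and C3ar1 (-0.81). Itgam rested on low levels, with means of 2.59 CPM in WT and 0.70 CPM in PPARγ-KO at 5 months. At 2 months edgeR called none of the 8, with 2 at an unadjusted p under 0.05 and 1 called by DESeq2.

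Some markers of other cell types moved with genotype too, and their part in the marker results was not tested. The summed level of 10 hepatocyte markers was 55100 to 71100 CPM in the WT libraries and 73100 to 88000 CPM in the PPARγ-KO libraries, most of it from Alb. Without Alb the other 9 overlapped between genotypes at both ages, with 15600 to 22300 CPM in WT and 20900 to 24500 CPM in PPARγ-KO at 2 months, and 20300 to 21300 against 20900 to 22000 CPM at 5 months. Of these 10, Alb, Hnf4a and Tat were called higher at 5 months. The summed level of 8 stellate cell markers was 342 to 419 CPM in WT and 278 to 335 CPM in PPARγ-KO, with Acta2, Col1a1 and Colec11 called lower at 5 months. Of 10 sinusoidal endothelial markers Fcgr2b, Clec4g, Cdh5 and Pecam1 were called lower at 5 months, with summed levels of 390 to 416 CPM in WT and 342 to 363 CPM in PPARγ-KO. Neutrophil markers summed to no more than 15.1 CPM and T and NK cell markers to no more than 16.2 CPM in any library. Of 3 neutrophil genes tested S100a9 and Csf3r were called lower at 5 months. Of 8 T and NK cell genes edgeR called none, with 2 at an unadjusted p under 0.05 and 2 called by DESeq2. Of 4 B cell genes Ms4a1 and Cd79b were called lower and Ighm higher, of 5 cholangiocyte genes Sox9 was called higher, and of 5 erythroid genes Alas2 was called higher.

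The bases before the start sites are shown for a few of the markers, chosen because these stretches hold a motif described here. RefSeq promoter windows (GRCm38.p6, 250 bases before to 50 after the start) were used for 7 of the 10 markers. The other 3 had no window or are not shown. GGAAGT, a core bound by PU.1 and other ETS factors, or its reverse complement, was in 5 of the 7 windows (Clec4f, Vsig4, Timd4, C1qb and C1qc) and in 23.8% of all 32851 windows searched. AGGTCA, a nuclear receptor half-site, was in 3 of 7 against 16.3%, and TGGGAA, an RBPJ core, in 2 of 7 against 25.6%, each read on both strands. The last motif can overlap GGAAGT by 4 bases. GGAAGT was 1 of 4 motifs searched, and the one not described here was also in 5 of the 7 windows. A match describes letters in a window and not binding. The stretches before the genes' own spans are given for Timd4 (chr11:46810549-46810798, plus strand), Vsig4 (chrX:96293439-96293688), C1qb (chr4:136886201-136886450) and C1qc (chr4:136893066-136893164, all minus strand), 5′ to 3′, with GGAAGT or its reverse complement in capitals.
Timd4: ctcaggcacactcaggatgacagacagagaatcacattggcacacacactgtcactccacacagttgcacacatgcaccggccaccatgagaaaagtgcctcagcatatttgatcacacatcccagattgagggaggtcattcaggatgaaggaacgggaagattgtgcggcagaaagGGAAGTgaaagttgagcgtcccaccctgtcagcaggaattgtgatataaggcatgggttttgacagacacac
Vsig4: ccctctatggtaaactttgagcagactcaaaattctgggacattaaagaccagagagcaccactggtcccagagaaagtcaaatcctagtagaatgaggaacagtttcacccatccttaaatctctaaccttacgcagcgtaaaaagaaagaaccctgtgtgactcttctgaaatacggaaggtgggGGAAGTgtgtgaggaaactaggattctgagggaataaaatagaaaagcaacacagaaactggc
C1qb: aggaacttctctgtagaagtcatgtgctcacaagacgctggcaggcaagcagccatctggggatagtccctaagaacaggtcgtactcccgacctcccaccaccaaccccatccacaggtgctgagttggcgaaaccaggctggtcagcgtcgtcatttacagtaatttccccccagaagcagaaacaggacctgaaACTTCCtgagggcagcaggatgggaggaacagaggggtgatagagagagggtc
C1qc: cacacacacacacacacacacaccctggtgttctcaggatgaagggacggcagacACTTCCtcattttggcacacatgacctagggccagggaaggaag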

How the data were processed

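Total RNA of whole liver was sequenced on an Illumina NovaSeq. The deposited values are whole-number counts per gene, not normalized by the authors. The submitters' processing notes name HISAT2 and mm10, whereas the study's methods name STAR with mm10. The counting tool, the annotation and the strand setting are not given in the sources used here. Of the 10 members, 9 had the same coordinates as in GENCODE M21. Whether the repeats of a group were separate mice is not given in the labels, so p-values measure the spread between these libraries.

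Genes were filtered with filterByExpr within each comparison, scaled by TMM and tested with edgeR 4.0.16 (quasi-likelihood, R 4.3.3), with only the groups compared in each fit, at a Benjamini-Hochberg adjusted p under 0.05 over all genes tested. Fits were tested on simulated counts, where the difference between ages recovered fewer changed genes than the other comparisons. Alternatives were DESeq2 1.42.0, library size alone, other filters, all 12 libraries together, the repeat number as a block, each library left out and, added after seeing the data, a length trend. Levels are CPM with TMM factors.

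The members and lists were chosen with earlier results of these data known. Named genes were the 10 members, Pparg, the called genes of each list (the 4 largest changes where more were called) and the 8 genes most like the members. A few further list genes were named after their values were seen, and some called list genes are not reported here. At 2 months same-numbered libraries of both genotypes deviated together (correlations 0.221, 0.325 and 0.139 over 5000 genes), which pairs them from the data, not the labels. In the other comparisons at least 1 pair was below 0.1. Promoter sequences are from RefSeq.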

Additional observations from a re-analysis of the deposited data

Results flagged for a closer look

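The effect of PPARγ-KO differed between 2 and 5 months for 7 of the 10 markers, by the edgeR test of the difference itself. The log2 difference (5 months minus 2 months) was -1.10 for Clec4f, -1.19 for Vsig4, -2.27 for Timd4, -1.04 for Cd5l, -0.92 for Csf1r, -0.86 for C1qa and -0.86 for C1qc. Timd4 alone among these 7 was called in opposite directions at the 2 ages, higher at 2 months and lower at 5 months. Its call at each age, and that of the difference, was lost when certain single libraries were left out. No formal test for single outlying libraries was run in these groups of 3. Repeats were only compared in pairs, and each library was left out in turn.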

How the results depend on the processing

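At 5 months, all 10 markers stayed lower in PPARγ-KO under every alternative run. At 2 months, 2 markers were called with no filter, with DESeq2 and at an adjusted p under 0.1, and the genes called numbered 1562 with no filter, 988 with DESeq2, 1063 at the looser threshold, 817 with the replicate block and 1153 with all 12 libraries in one fit, against 519. Leaving out 1 library at a time gave 0 to 2 markers and 117 to 1577 genes called (most without WT repeat 1). Genes called in the difference between ages numbered 793 with no filter, 594 with DESeq2 and 519 at the looser threshold, against 238, and 83 to 567 without single libraries. At 5 months, single libraries left out gave 1593 to 3078 genes, 7 to 10 markers and a median of -1.02 to -0.83. For WT over time the median was 1.44 to 1.73 without single libraries and 1.31 with the length trend. The median for PPARγ-KO over time, 0.31, was -0.0467 with the replicate block, 0.15 with the length trend and -0.17 to 0.49 without single libraries. The median of 10 is the mean of its middle values, one of which was Marco, and Marco turned to -0.14 under the block.

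Markers that were not called over all libraries changed sign as follows. Without single libraries at 2 months, the genotype change ranged from -0.00772 to 0.33 for Adgre1 and from -0.0177 to 0.188 for Csf1r (lowest without WT repeat 1), and from -0.27 to 0.0125 for Cd5l, -0.194 to 0.139 for C1qb and -0.119 to 0.0832 for C1qc (highest without WT repeat 2). In PPARγ-KO over time it ranged from -0.159 to 0.0155 for Clec4f, -0.294 (called, adjusted p = 0.0319) to 0.0306 for Vsig4, -1.43 to 1.10 for Marco and -0.176 to 0.162 for Adgre1 (lowest without repeat 2 of 5 months). Adgre1 in that comparison gave -0.0178 with library size alone and -0.0442 with the length trend, and Timd4 in WT over time gave -0.0479 with the length trend. The cause was not tested. The block changed no marker's call. Timd4 and Marco rest on few counts, from 25 and 48 in a library.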
